A study of Mus musculus with 8 samples.

Results

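The Wnt ligands, their Frizzled receptors, the R-spondins and the secreted Wnt inhibitors were followed in mouse embryonic stem cells that carried the HNRNPK 6A mutation or were wild type (WT). Members were all genes of the count tables whose symbol is Wnt, Fzd, Sfrp, Dkk or Rspo with a number, or Wif1, a rule that uses symbols only. This gave 42 of 24421 genes, namely 19 Wnt ligands, 10 Frizzled receptors, 9 secreted inhibitors (Sfrp1, Sfrp2, Sfrp4, Sfrp5, Dkk1 to Dkk4 and Wif1) and 4 R-spondins. Frzb, a further secreted frizzled-related protein, has another kind of symbol and is no member. A filter on low counts kept 38 members for testing, 17 ligands, 10 receptors, 8 inhibitors and 3 R-spondins. It left out Wnt3a, Wnt8a, Dkk4 and Rspo4, which had at most 13 counts in any group of 2 libraries.

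The 4 groups were 6A cells at day 14, WT cells at day 14, 6A cells at day 0 and WT cells at day 0, with 2 libraries each. All came from a hybrid line of the strains CAST/Ei and 129/Sv/Jae, so that part of the reads can be given to a parental allele. Per the labels, cells of all 4 groups were grown for 2 days on irradiated embryonic fibroblast feeders with leukemia inhibitory factor at 500 U/mL. Day 0 cells were harvested after the feeders were taken away. Day 14 cells were then cultured without this factor, in suspension for 4 days as embryoid bodies and on gelatin from day 5. Embryoid bodies are mixed cultures, and in such bulk RNA fewer cells of a type cannot be told apart from less RNA per cell. The study's design sentence speaks of day 7, whereas the titles and the protocol say day 14, which is used here. HNRNPK is an RNA-binding protein, and no source used here says what 6A substitutes or whether the mutant is 1 clone.

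Wnt proteins are secreted lipid-modified ligands that bind Frizzled receptors together with the co-receptors Lrp5 and Lrp6. In the canonical branch this stabilises beta-catenin, which then acts with LEF and TCF factors in the nucleus, whereas other ligands act mainly through planar cell polarity and calcium signalling. R-spondins strengthen the response by keeping the ligases Rnf43 and Znrf3 from removing Frizzleds from the cell surface. Wif1 and the secreted frizzled-related proteins bind Wnt ligands outside the cell, and Dkk1 blocks Lrp5 and Lrp6. In differentiating embryonic stem cells the pathway is known for its part in forming mesoderm and endoderm, and in embryos for patterning the neural tube.

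Library totals ran from 8146684 to 15540163 counts, at which 3 counts correspond to 0.2 to 0.37 CPM in 1 library. Values are normalised read counts in CPM, that is scaled to TMM-adjusted library sizes, and a member was called when its edgeR adjusted p over all 15458 genes tested was under 0.05. A sum over 11 pluripotency markers stood at 5840 and 5560 CPM in 6A and at 5840 and 5830 CPM in WT at day 0, and at 755 and 752 CPM in 6A and 602 and 562 CPM in WT at day 14. Hnrnpk itself had 366 ± 26.3 CPM in 6A and 485 ± 15.1 CPM in WT at day 14, and 533 ± 7.54 CPM in 6A and 794 ± 121 CPM in WT at day 0 (SD, n = 2 each). Its calls at day 14 (log2 fold change -0.40, edgeR adjusted p = 0.043) and at day 0 (-0.58, adjusted p = 0.04) were each lost without most single libraries, with adjusted p of up to 0.29 and 0.26. A 6A substitution need not change the RNA level, so these values do not check the labels.

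By log2 fold change, the ligands called with the largest differences between genotypes were Wnt8b, Wnt1, Wnt6 and Wnt7a, all lower in 6A at day 14. The 250 bases before their transcription start are printed first, from the RefSeq promoter table of build GRCm38.p6, 5′ to 3′ on the strand of the gene. These are the ligands called lower that have a window in the RefSeq table. Wnt7b, also called lower, has none. The windows of Fzd1, Fzd9, Wif1 and Wnt2b, which were called as well, are not printed. Capitals mark CTTTG, the core of the LEF and TCF binding motif, searched on both strands (CTTTG or CAAAG).
Wnt8b: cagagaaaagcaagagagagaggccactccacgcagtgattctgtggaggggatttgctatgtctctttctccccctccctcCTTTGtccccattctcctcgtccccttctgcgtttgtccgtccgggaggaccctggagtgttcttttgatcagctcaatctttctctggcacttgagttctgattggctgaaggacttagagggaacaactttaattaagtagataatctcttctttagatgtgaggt
Wnt1: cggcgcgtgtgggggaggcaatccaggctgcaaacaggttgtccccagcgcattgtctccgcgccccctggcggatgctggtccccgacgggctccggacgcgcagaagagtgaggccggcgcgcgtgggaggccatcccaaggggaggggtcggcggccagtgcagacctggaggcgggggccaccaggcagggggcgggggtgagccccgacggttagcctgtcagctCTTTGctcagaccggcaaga
Wnt6: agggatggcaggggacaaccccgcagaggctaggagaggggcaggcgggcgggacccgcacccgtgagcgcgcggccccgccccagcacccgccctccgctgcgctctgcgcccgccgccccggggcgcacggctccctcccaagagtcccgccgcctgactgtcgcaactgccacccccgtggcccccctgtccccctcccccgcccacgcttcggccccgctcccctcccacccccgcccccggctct
Wnt7a: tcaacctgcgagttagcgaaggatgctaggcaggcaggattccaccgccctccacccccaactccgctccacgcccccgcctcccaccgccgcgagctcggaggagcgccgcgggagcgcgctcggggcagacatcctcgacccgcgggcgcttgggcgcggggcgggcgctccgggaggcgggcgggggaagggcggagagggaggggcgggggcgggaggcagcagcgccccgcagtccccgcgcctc
The Wnt8b window lies at chr19:44493222-44493471 on the plus strand, has 48.4% GC with 5 CG dinucleotides, and holds the core once, 168 bases before the start. The Wnt1 window, chr15:98789607-98789856 on the plus strand, has 71.6% GC with 23 CG dinucleotides, and holds the core once, 20 bases before the start. The Wnt6 window, chr1:74771642-74771891 on the plus strand, has 79.6% GC with 28 CG dinucleotides and no core. The Wnt7a window, chr6:91411354-91411603 on the minus strand, has 77.6% GC with 34 CG dinucleotides and no core. Of these 4 windows, that of Wnt8b is the one poor in GC.

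The RefSeq table held 28 of the 42 members, with 31 windows. The core CTTTG was found in 13 of the 31 windows, 41.9%, against 48.6% of all 32851 windows of the table. The longer motif CTTTGAT, which contains the core, was in 2 member windows, 1 of Wnt11 and 1 of Wnt5b, that is 6.45% against 3.21% of all windows. The median GC content was 68% in the member windows and 52.4% in all windows, and the median number of CG dinucleotides was 22 and 6. Member promoters were therefore GC-rich as a group, while the core was found in a share of them below that of the table. A match is a description of letters only, and nothing is read from a window without one.

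At day 14 most of the members called between 6A and WT cultures were lower in 6A. Of 38 members tested, 3 rose and 12 fell in 6A, 39.5% in all, against 13.6% of all genes tested, of which 5.33% rose and 8.31% fell. The median log2 fold change of the members was -0.14 against 0 over all genes, with 15 positive and 23 negative values. Among the 17 ligands the median was 0, with 9 positive and 8 negative values. By role, 2 of 17 ligands rose and 5 fell, 1 of 10 receptors rose and 4 fell, 2 of 8 inhibitors fell, and 1 of 3 R-spondins fell. Of the ligands that fell, Wnt8b, Wnt1 and Wnt7a had at most 10 counts in every group but WT at day 14. They passed the filter on low counts only through that group, so their calls could only be downwards. No inhibitor and no R-spondin was called higher in 6A at day 14 (inhibitors 0 at unadjusted p under 0.05 and 0 with DESeq2, R-spondins 1 and 0). The count of 15 was 9 in the fit without 6A day 14 replicate 2.

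**Figure D1:**
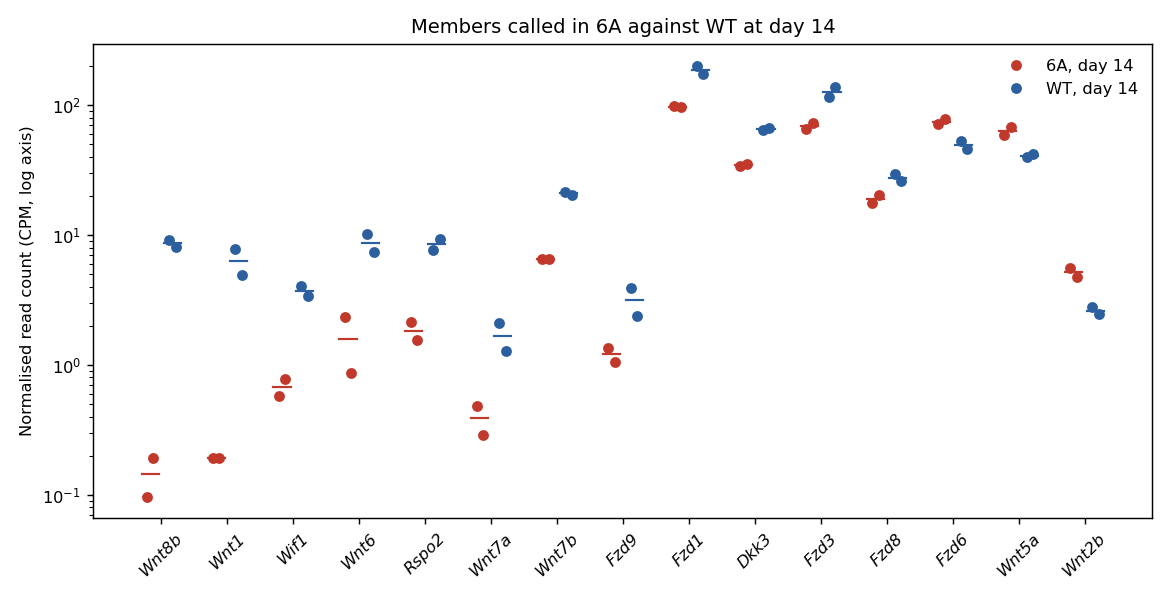
Normalised read count (CPM, log axis) of the 15 members called between genotypes at day 14, 6A libraries in red and WT libraries in blue, with a bar at each group mean. The gap between the groups is widest for Wnt8b and Wnt1.

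Among the ligands, Wnt8b and Wnt1 were close to undetected in 6A. Wnt8b (mm10, chromosome 19, 44493472 to 44514273, plus strand), known from the developing forebrain and hippocampus, had 0.0966 and 0.193 CPM in 6A, against 9.16 and 8.15 CPM in WT, at day 14. That is 3 counts in 6A against 182 in WT, so the level was 59.2 times as high in WT, with a counting interval of 19.9 to 289 (edgeR adjusted p = 7.8e-06). Both 6A libraries were at the level of 1 or a few reads, and both WT libraries stood well above.

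Wnt1 (chromosome 15, 98789857 to 98793837, plus strand), the ligand of the midbrain-hindbrain organiser and dorsal neural tube, had 0.193 and 0.193 CPM in 6A and 7.77 and 4.9 CPM in WT. The sums were 4 and 129 counts, and the log2 fold change was -4.93 ± 0.54 (edgeR adjusted p = 9.7e-05). Its neighbour Wnt10b, 11.7 kb away on the other strand, was not called (0.483 and 0.965 CPM in 6A, 1.28 and 0.87 CPM in WT, adjusted p = 0.63).

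Wnt6 (chromosome 1, 74771892 to 74785322, plus strand), a ligand of ectoderm and other epithelia, had 2.32 and 0.869 CPM in 6A and 10.1 and 7.35 CPM in WT (log2 fold change -2.43 ± 0.36, edgeR adjusted p = 0.00049). Both 6A libraries lay below both WT libraries. Wnt10a, which starts 6.2 kb behind Wnt6, had 2.12 and 1.93 CPM in 6A and 1.04 and 1.19 CPM in WT, a log2 difference of 0.84 that was not called (adjusted p = 0.29).

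The paralogs Wnt7a and Wnt7b, ligands of the central nervous system that act on its blood vessels, both fell. Wnt7b (chromosome 15, 85535437 to 85582473, minus strand) had 6.57 and 6.56 CPM in 6A and 21.4 and 20.4 CPM in WT (log2 fold change -1.67 ± 0.19, edgeR adjusted p = 5.6e-05). The libraries of each genotype were close together and far from the other genotype. The exons of Wnt7b share 324 bases, 6.6% of their length, with AU022754 on the opposite strand, and since no source used here gives the strand setting of the counting, reads of that stretch cannot be assigned. The call of Wnt7b was lost with 129 reads only (adjusted p = 0.15).

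Wnt7a (chromosome 6, 91363981 to 91411363, minus strand) was scarcer, with 0.483 and 0.29 CPM in 6A and 2.09 and 1.27 CPM in WT (log2 fold change -2.04 ± 0.55, edgeR adjusted p = 0.025). The groups did not overlap, but the sums were only 8 and 34 counts. The call was lost with DESeq2 (adjusted p = 0.23) and without 6A replicate 1 or 2 (0.093 and 0.18) or WT replicate 1 or 2 (0.18 and 0.053) of day 14.

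In the other direction, Wnt5a and Wnt2b rose in 6A. Wnt5a (chromosome 14, 28504750 to 28527448, plus strand), the main ligand of the beta-catenin independent branch, had 58.5 and 67.5 CPM in 6A and 39.9 and 41.8 CPM in WT (log2 fold change 0.63 ± 0.13, edgeR adjusted p = 0.0055). All 4 libraries were well covered and the groups did not overlap. The call was lost without 6A day 14 replicate 2 (adjusted p = 0.074) or WT day 14 replicate 1 (0.063). Wnt5a had the same direction at day 0, where it was not called (0.49 ± 0.13, adjusted p = 0.089).

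Wnt2b (chromosome 3, 104945272 to 104961921, minus strand), which acts in lung and gut formation, had 5.6 and 4.73 CPM in 6A and 2.78 and 2.45 CPM in WT (log2 fold change 0.99 ± 0.29, edgeR adjusted p = 0.039). Both 6A libraries lay above both WT libraries. The call was lost with DESeq2 (adjusted p = 0.32), with 129 reads only (0.39), without any 1 library of day 14 (0.097 to 0.24) and without 6A day 0 replicate 1 (0.051). Wnt2, a close relative of Wnt2b, had 13.6 and 11.8 CPM in 6A and 8.35 and 7.2 CPM in WT and just missed the threshold (log2 fold change 0.72, edgeR adjusted p = 0.051).

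The remaining 9 ligands tested were not called at day 14 either. Wnt4, which acts in kidney and gonad, had 22.3 CPM in both 6A libraries and 16.5 and 17 CPM in WT (log2 fold change 0.41, edgeR adjusted p = 0.11), and Wnt5b had 8.11 and 6.66 CPM in 6A and 5.68 and 4.27 CPM in WT (0.59, adjusted p = 0.12). Wnt16 had 0.193 and 0.579 CPM in 6A and 1.04 and 1.27 CPM in WT (-1.57, adjusted p = 0.098). These groups did not overlap, but their differences did not pass. Wnt3, Wnt9a, Wnt11 and Wnt9b had log2 fold changes between -0.07 and 0.21, and their groups overlapped.

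Among the receptors, Fzd1, Fzd3, Fzd8 and Fzd9 fell, and Fzd6 rose. Fzd1 (chromosome 5, 4753839 to 4758035, minus strand) had 97.7 and 97.1 CPM in 6A and 202 and 174 CPM in WT (log2 fold change -0.95 ± 0.17, edgeR adjusted p = 0.0021), a difference that was not called with 129 reads only (adjusted p = 0.07). The 6A libraries were nearly equal and lay below both WT libraries.

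Fzd3 (chromosome 14, 65192449 to 65262463, minus strand), which guides axon growth and acts with Fzd6 in neural tube closure, had 65.3 and 72.3 CPM in 6A and 115 and 139 CPM in WT (log2 fold change -0.89 ± 0.14, edgeR adjusted p = 0.001). Fzd6 (chromosome 15, 39006034 to 39038188, plus strand) went the other way, with 71.8 and 77.9 CPM in 6A and 53 and 45.6 CPM in WT (0.60 ± 0.13, edgeR adjusted p = 0.0066). The groups did not overlap for either receptor. The Fzd6 call was lost without 6A day 14 replicate 2 (adjusted p = 0.067) or WT day 14 replicate 2 (0.097).

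Fzd8 (chromosome 18, 9212163 to 9218136, plus strand) had 17.6 and 20.2 CPM in 6A and 29.4 and 26 CPM in WT (log2 fold change -0.55 ± 0.16, edgeR adjusted p = 0.036). Its call was lost with DESeq2 (adjusted p = 0.16), with 129 reads only (0.21) and without any 1 library of day 14 (0.085 to 0.25), and with CAST reads only the log2 fold change was 0.01. That last value rests on 2 CAST reads in each genotype. Fzd9 (chromosome 5, 135248938 to 135251230, minus strand), a receptor of the hippocampus among other tissues, had 1.35 and 1.06 CPM in 6A and 3.94 and 2.37 CPM in WT (-1.33 ± 0.35, edgeR adjusted p = 0.023). Its call was lost without 6A replicate 1 or 2 (adjusted p = 0.075 and 0.15) or WT replicate 1 (0.18) of day 14, and with 129 reads only its log2 fold change was 0.40. That last value rests on 4 reads given to 129 in 6A and 3 in WT. Both receptors had groups that did not overlap, and both calls depended on single libraries.

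The other 5 receptors were not called. Fzd4, the Norrin receptor of blood vessels, had 44.6 and 44.7 CPM in 6A and 26.9 and 37.5 CPM in WT (log2 fold change 0.46, edgeR adjusted p = 0.081), and Fzd10 had 7.34 and 7.14 CPM in 6A and 10.8 and 9.33 CPM in WT (-0.46, adjusted p = 0.11). Fzd7 had 140 and 198 CPM in 6A and 237 and 215 CPM in WT (-0.42, adjusted p = 0.31). Fzd2 and Fzd5 had log2 fold changes of -0.02 and 0.01 with overlapping groups, and their standard errors were 0.14 and 0.13.

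Among the secreted inhibitors, Wif1 and Dkk3 fell. Wif1 (chromosome 10, 121033960 to 121100650, plus strand) had 0.579 and 0.772 CPM in 6A and 4.06 and 3.4 CPM in WT at day 14 (log2 fold change -2.43 ± 0.39, edgeR adjusted p = 0.00091). Dkk3 (chromosome 7, 112116017 to 112159057, minus strand), the most divergent of the Dickkopf proteins, had 34 and 35.3 CPM in 6A and 64.4 and 66.9 CPM in WT (-0.92 ± 0.15, edgeR adjusted p = 0.00094). In both genes the libraries of a genotype were close and the genotypes were far apart. Dkk3 was also the member that was called with CAST reads only (-1.22, edgeR adjusted p = 0.0055) and with 129 reads only (-0.94, adjusted p = 0.015).

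The most abundant inhibitor, Sfrp1, had 691 and 698 CPM in 6A and 691 and 700 CPM in WT, and its log2 fold change was 0.00 ± 0.10 (edgeR adjusted p = 0.99). Sfrp2 had 43.5 and 17.6 CPM in 6A and 14.6 and 16.7 CPM in WT, so 1 of its 6A libraries was far above the other 3 (0.96 ± 0.73, adjusted p = 0.49). Dkk1, Dkk2, Sfrp4 and Sfrp5 had log2 fold changes between -0.30 and 0.03 and were not called. The inhibitors thus held one of the flattest members of the family and, in Wif1, one of its larger differences.

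The R-spondin that fell was Rspo2 (chromosome 15, 43020794 to 43170826, minus strand), which acts in limb and lung formation. It had 2.12 and 1.54 CPM in 6A and 7.65 and 9.33 CPM in WT (log2 fold change -2.21 ± 0.29, edgeR adjusted p = 0.00021). Rspo1, which acts in ovary formation, had 19.3 and 18.8 CPM in 6A and 11.5 and 13.4 CPM in WT (0.61 ± 0.22, adjusted p = 0.084), and Rspo3, an R-spondin of blood vessels, had 13.4 and 13.9 CPM in 6A and 17.4 and 19.2 CPM in WT (-0.42 ± 0.17, adjusted p = 0.13). Only the difference of Rspo2 passed the test, although the groups did not overlap for any of these R-spondins.

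**Figure D2:**
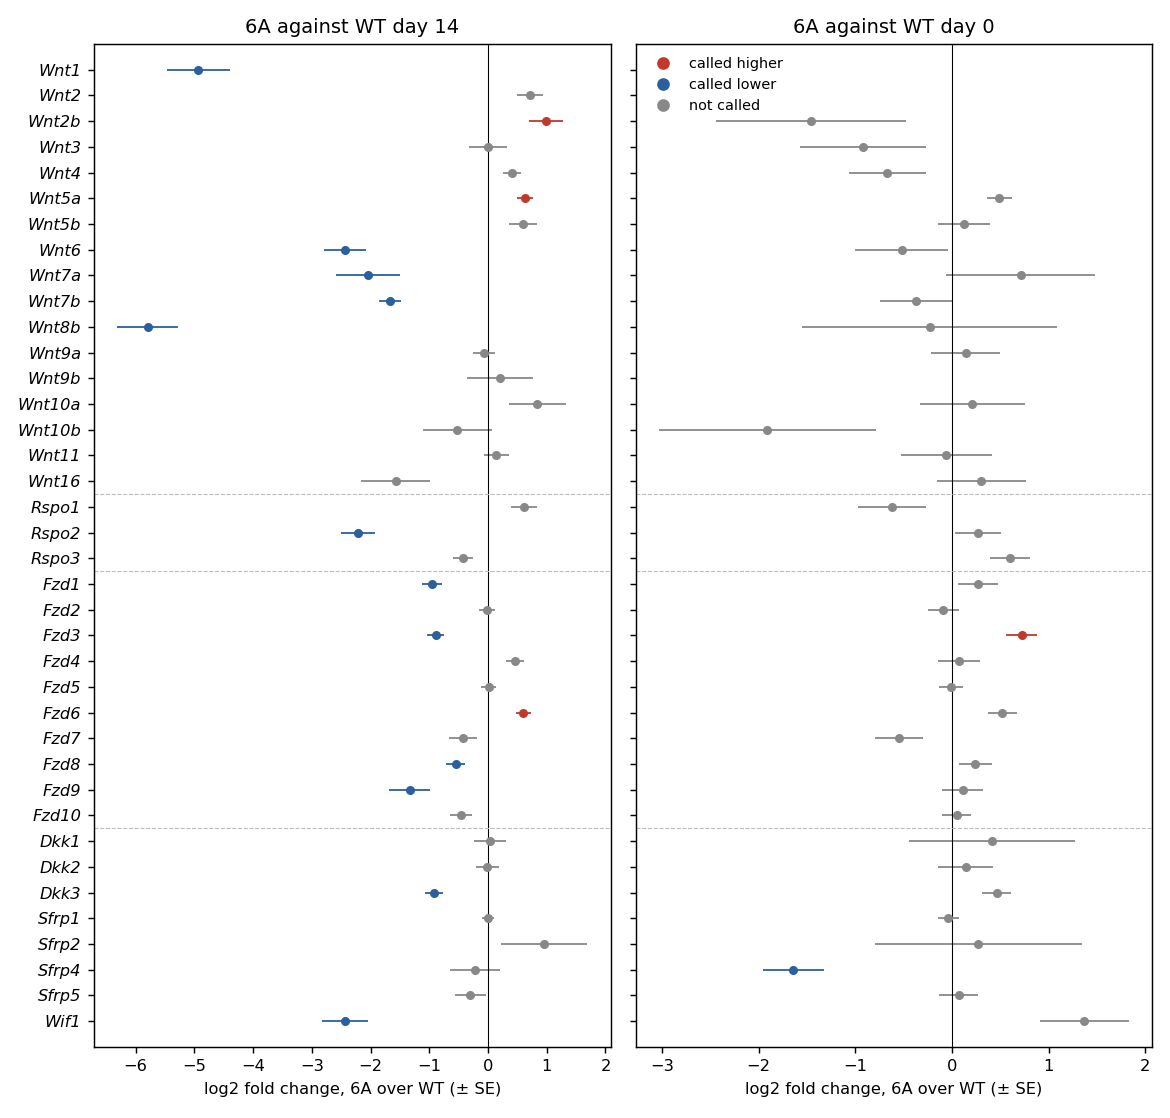
Log2 fold change of 6A over WT (± SE) at day 14 (left) and day 0 (right) for the members tested, ordered by role, with calls in colour. At day 14 the lowest values belong to Wnt8b and Wnt1, at day 0 most members lie near 0, and members with 0 counts in a group are left out. Values of genes with 3 or fewer counts in a group, such as Wnt8b, depend on the prior count of the fit.

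Marker RNA of several cell types differed between the genotypes at day 14. The sum of 18 neural markers was 133 and 112 CPM in 6A and 372 and 381 CPM in WT at day 14, a ratio of 0.325, and 15 of the 18 were called lower. In each 6A library 2 of the 18 markers were at 0 counts, and in the WT libraries none was. Nes went the other way, with a mean of 68 CPM in 6A and 59.1 CPM in WT, and was the largest part of the 6A sum. Cardiac markers summed to 435 and 413 CPM in 6A and 1660 and 1830 CPM in WT (ratio 0.243, 11 of 12 tested lower). Blood markers summed to 367 and 384 CPM in 6A and 170 and 179 CPM in WT (ratio 2.15, 9 of 11 tested higher), and endoderm markers to 465 and 530 CPM in 6A and 307 and 301 CPM in WT (ratio 1.64, 3 of 10 higher). The endoderm sum differed mostly through Apob (mean 210 CPM in 6A and 104 CPM in WT) and Cubn (105 and 20.1 CPM). Afp was level (93.2 and 93.6 CPM), while Ttr (31.8 and 38.8 CPM) and Foxa2 (6.03 and 11 CPM) had lower means in 6A. Pluripotency markers, whose sums at day 14 are given above, had a ratio of 1.29, and 5 of 11 were called higher. The part of these cell types in the differences of the Wnt family was not tested.

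In undifferentiated cells the mutation was accompanied by few differences in the family. At day 0, 1 of 38 members rose and 1 fell in 6A, 5.26% in all, against 1.58% of all genes tested, of which 1.06% rose and 0.518% fell. The median log2 fold change of the members was 0.09 against 0.01 over all genes. It was 0.11 without Wnt1, Wnt2 and Wnt9b, which had 0 counts in a day 0 group. No ligand was called at day 0 (1 at unadjusted p under 0.05, Wnt5a, and 0 with DESeq2). The count of 2 became 0 or 1 when any 1 library was left out other than WT day 0 replicate 1, where it stayed at 2.

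Fzd3 was the receptor that rose at day 0, with 27.4 and 31.2 CPM in 6A and 20 and 16 CPM in WT (log2 fold change 0.72 ± 0.16, edgeR adjusted p = 0.043). The groups did not overlap. The call was lost with 129 reads only (adjusted p = 0.1) and with only the 2 groups fitted (0.18). It was also lost without 6A day 0 replicate 1 or 2, WT day 0 replicate 2 or any 1 library of day 14.

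Sfrp4 (chromosome 13, 19623104 to 19632994, plus strand), a secreted frizzled-related protein, had 2.48 and 1.6 CPM in 6A and 6.66 and 6 CPM in WT at day 0 (log2 fold change -1.64 ± 0.32, edgeR adjusted p = 0.026). Both 6A libraries lay below both WT libraries. At day 14 it had 2.03 and 0.869 CPM in 6A and 1.62 and 1.74 CPM in WT, which was not called (-0.22, adjusted p = 0.80). This day 0 call was lost with DESeq2 (adjusted p = 0.077), with 129 reads only (0.3) and with only the 2 groups fitted (0.087). It was also lost without 6A day 0 replicate 2, WT day 0 replicate 2 or either WT day 14 library.

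Other members that stood out at day 0 without passing were Wif1, with 1.2 and 1.6 CPM in 6A and 0.617 and 0.494 CPM in WT (log2 fold change 1.37, edgeR adjusted p = 0.15), and Fzd6, with 18.3 and 16.8 CPM in 6A and 12.1 and 12.4 CPM in WT (0.52, adjusted p = 0.10). Dkk3 had 62.4 and 49.7 CPM in 6A and 45.2 and 36.4 CPM in WT (0.46, adjusted p = 0.13), and Rspo3 had 6.5 and 5.34 CPM in 6A and 3.95 and 3.81 CPM in WT (0.60, adjusted p = 0.18). All of these were higher in both 6A libraries. Sums of markers of male cells and of fibroblasts were higher in 6A at day 0. That over 6 Y-linked genes, of which Usp9y and Zfy1 were at 0 in every library, was 43.4 and 46.9 CPM in 6A and 28.3 and 28.2 CPM in WT, a ratio of 1.6, with 0 of 4 tested called (edgeR; 3 higher at unadjusted p under 0.05 and 0 with DESeq2). The 20 fibroblast markers, none at 0, summed to 4390 and 3660 CPM in 6A and 3100 and 3280 CPM in WT (ratio 1.26, 2 of 20 called higher, 9 at unadjusted p under 0.05 and 4 with DESeq2). At day 14 the Y-linked sum was 0.0966 and 0 CPM in 6A and 0 CPM in both WT libraries. The part of Y-linked and fibroblast RNA in the day 0 differences, the changes between days and the interactions was not tested.

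Whether the genotype difference changed between the days was tested as an interaction, the 6A minus WT difference at day 14 minus that at day 0. Of the members, 6 of 38 had a negative interaction and 0 a positive one (edgeR; 4 positive and 14 negative at unadjusted p under 0.05, and 0 and 5 with DESeq2). Over all genes tested 4.74% were called, 1.4% positive and 3.34% negative. The 6 were the receptors Fzd3 and Fzd1, the inhibitors Wif1 and Dkk3, and the R-spondins Rspo2 and Rspo3. No ligand was called (2 positive and 5 negative at unadjusted p under 0.05, and 0 with DESeq2), and the day 0 counts of Wnt1 and Wnt8b, at most 2 in a group, leave that test little to work with.

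Fzd3 had an interaction of -1.61 ± 0.22 (log2, edgeR adjusted p = 0.0011), since it was higher in 6A at day 0 and lower at day 14, and this call held in all 13 alternatives. Wif1 had -3.80 ± 0.60 (adjusted p = 0.0031), Rspo2 -2.49 ± 0.38 (0.0027) and Dkk3 -1.39 ± 0.21 (0.0025), and each of these 3 calls was lost in 1 alternative that used the reads of 1 allele only. Fzd1 had -1.21 ± 0.27 (adjusted p = 0.023) and Rspo3 -1.03 ± 0.27 (0.049). The call of Fzd1 was lost with 129 reads only (0.37) and without 6A day 0 replicate 1 or any 1 library of day 14. That of Rspo3 was lost in 12 of 13 alternatives, among them RLE scaling (0.06), 129 reads only (0.42) and the fits without each of the 8 libraries.

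On differentiation most of the family rose in both genotypes. At day 14 against day 0, 24 of 38 members rose and 8 fell in 6A, against 35.4% and 36.6% of all genes tested, 71.9% in all. In WT, 29 rose and 5 fell, against 38.4% and 36.8% of all genes tested, 75.2% in all. The median log2 fold change of the members was 2.05 in 6A, or 1.62 with genes at 0 counts set to their bounds, and 2.46 in WT, while over all genes it was -0.03 and 0.04. These counts and medians include members, named below, that passed the filter on low counts only through day 14. Such members could only be called as rises, so the share of rises was in part set by the filter.

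**Figure D3:**
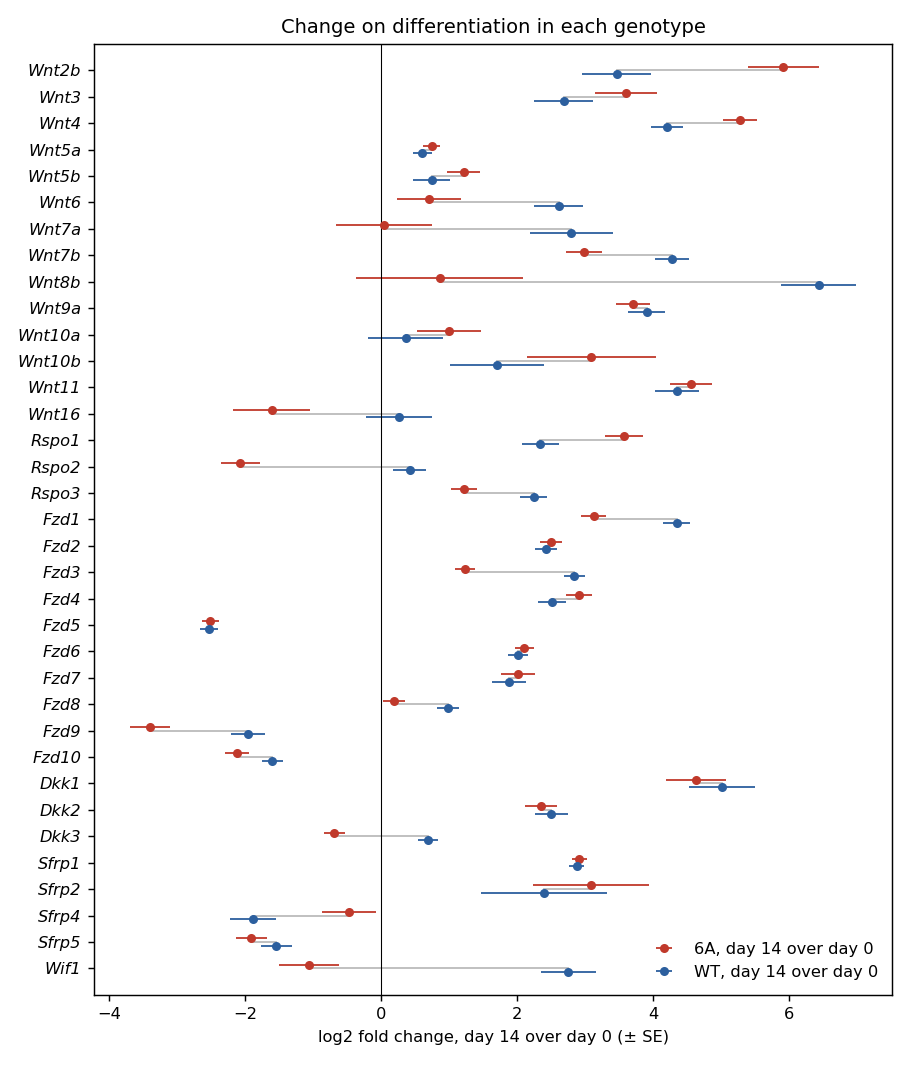
Log2 fold change of day 14 over day 0 (± SE) in 6A (red) and in WT (blue) for the members tested, ordered by role, with a grey line joining the genotypes. Points right of 0 rose on differentiation; Dkk3, Wif1, Rspo2 and Wnt16 lie on opposite sides of 0 in the 2 genotypes, of which Rspo2 and Wnt16 were not called in WT, and Wnt1, Wnt2 and Wnt9b, with 0 counts in a day 0 group, are left out. The low day 0 counts of Wnt8b and Wnt2b make their values depend on the prior count of the fit.

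The largest rises were those of ligands. Among these ligands Wnt1, Wnt2, Wnt8b and Wnt9b had at most 2 counts in each day 0 group. They passed the filter on low counts only through day 14, so their calls could only be rises. The same holds for Wnt2b, Wnt3, Wnt4, Wnt7a, Wnt7b, Wnt10b and Wnt11, and for the inhibitor Dkk1, whose day 0 counts were too low to pass. Wnt2, which acts in lung and vessel formation, had 263 counts in 6A at day 14 and 1 at day 0, a ratio of 339 with a counting interval of 60.3 to 13400 (edgeR adjusted p = 1.1e-08). In WT it had 163 counts at day 14 and 0 at day 0, which makes it at least 56.9-fold higher (adjusted p = 5.9e-08), taking a floor of 3 counts over the group. Wnt9b was at 0 in every day 0 library and at least 8.16-fold higher at day 14 in 6A and at least 5.93-fold higher in WT. So Wnt2 and Wnt9b were essentially absent from the undifferentiated libraries at this depth and present in both genotypes at day 14.

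Wnt1 rose in both genotypes, and Wnt8b rose in WT. Wnt1, at 0 counts in all 4 day 0 libraries, was at least 1.72-fold higher at day 14 in 6A, from 4 counts (edgeR adjusted p = 0.047), and at least 45-fold higher in WT (adjusted p = 1.3e-06). The call in 6A was lost with 129 reads only (adjusted p = 0.32) and without any 1 library of 6A (0.094 to 0.13). Wnt8b had 3 counts at day 14 and 2 at day 0 in 6A (ratio 1.93, counting interval 0.221 to 23.1, not called), and 182 at day 14 and 2 at day 0 in WT (ratio 95.2, interval 26 to 792, edgeR adjusted p = 1.4e-07). Wnt6 had a log2 fold change of 0.70 in 6A (edgeR adjusted p = 0.20) and 2.61 in WT (adjusted p = 1.8e-05), and Wnt7a 0.04 (0.96) and 2.79 (0.00084). The differences between the genotypes in these rises did not pass the interaction test (edgeR, Wnt8b adjusted p = 0.12, Wnt6 0.1, Wnt7a 0.13). For Wnt1, at 0 counts in both groups of day 0, that test says nothing (adjusted p = 1).

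Wnt4 and Wnt11 rose in both genotypes. Wnt4 had 22.3 ± 0.00583 CPM at day 14 and 0.557 ± 0.0621 CPM at day 0 in 6A (mean ± SD, n = 2; change of 5.28 ± 0.25 on the log2 scale, edgeR adjusted p = 4.3e-10), and 16.7 ± 0.383 and 0.917 ± 0.0989 CPM in WT (4.2 ± 0.24, adjusted p = 2.7e-09). Wnt11, a ligand of heart formation, had 4.55 ± 0.31 in 6A and 4.35 ± 0.32 in WT. Wnt2b had 107 counts at day 14 and 2 at day 0 in 6A (ratio 68.9, counting interval 18.6 to 576). The ligand that fell in 6A was Wnt16 (-1.61 ± 0.57, edgeR adjusted p = 0.02), a call lost with DESeq2 (0.14) and without 6A day 0 replicate 1 (0.069) or 6A day 14 replicate 1 (0.18), and in WT no ligand was called lower (0 at unadjusted p under 0.05 and 0 with DESeq2).

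The receptors moved in both directions. Fzd5, the leading Frizzled of the undifferentiated cells, had 38.4 and 43.8 CPM at day 14 and 245 and 223 CPM at day 0 in 6A, and 40.6 and 41 CPM at day 14 and 218 and 253 CPM at day 0 in WT. It fell by 2.51 ± 0.13 and 2.53 ± 0.13 on the log2 scale in 6A and WT (edgeR adjusted p = 1e-09 and 8.5e-10), with no overlap between days. Fzd9 and Fzd10 fell too, Fzd9 by 3.40 ± 0.29 in 6A and 1.96 ± 0.25 in WT, and Fzd10 by 2.12 ± 0.17 and 1.60 ± 0.16. The other receptors rose in both genotypes, except Fzd8, which was not called in 6A (0.19, adjusted p = 0.30) and whose rise in WT turned to -3.59 with CAST reads only. In WT, Fzd8 had 2 CAST reads at day 14 and 33 at day 0. Fzd1 rose by 3.12 ± 0.19 in 6A and 4.34 ± 0.20 in WT.

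Of the secreted inhibitors, Dkk1 rose most, with 7.82 and 7.53 CPM at day 14 and 0.171 and 0.401 CPM at day 0 in 6A (4.63 ± 0.44 on the log2 scale, edgeR adjusted p = 4.3e-07). In WT it had 8.46 and 6.72 CPM at day 14 and 0 and 0.353 CPM at day 0 (5.01 ± 0.49, adjusted p = 4.8e-07). Sfrp5 fell by 1.91 ± 0.23 in 6A and 1.54 ± 0.23 in WT, and Sfrp4 fell in WT (-1.89 ± 0.34, edgeR adjusted p = 2e-04) while its change in 6A was not called (-0.47, adjusted p = 0.31).

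Dkk3 and Wif1 changed in opposite directions. Dkk3 fell by 0.69 ± 0.15 in 6A (edgeR adjusted p = 0.00085) and rose by 0.69 ± 0.15 in WT (adjusted p = 0.00073). Wif1 fell by 1.06 ± 0.44 in 6A (adjusted p = 0.045) and rose by 2.75 ± 0.40 in WT (adjusted p = 2.9e-05). The fall of Wif1 in 6A was lost in 11 of 14 alternatives (adjusted p of 0.052 to 0.25), among them DESeq2, RLE scaling and the fits without any 1 library of 6A or of WT at day 14, while its direction held in all 14. The directions of Dkk3 depended on which allele-assigned reads were counted. With CAST reads only, of which there were 4 in each genotype at day 0, it was higher at day 14 by 5.77 in 6A and 6.76 in WT. With 129 reads only its log2 fold change was -1.82 in 6A and -0.32 in WT, where it was not called (adjusted p = 0.17). The interactions given above test these differences. Rspo2 fell in 6A (-2.07 ± 0.29, edgeR adjusted p = 2.1e-05) and was not called in WT (0.42 ± 0.24, adjusted p = 0.13), and its fall in 6A was not called with 129 reads only (adjusted p = 0.1).

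Levels of different genes were compared per kb of annotated exon. In CPM per kb at day 14, Sfrp1 led the family with 159 in both 6A and WT, followed in 6A by Fzd2 with 42.5 and Fzd7 with 37.3, and in WT by Fzd7 with 49.9, Fzd1 with 44.8 and Fzd2 with 43.3. Fzd1 had 23.2 CPM per kb in 6A. At day 0 Fzd5 led with 33.8 in 6A and 34 in WT, followed by Sfrp1 with 21.1 in 6A and 21.7 in WT, then by Dkk3 with 16.7 in 6A, and by Fzd7 with 13.4 in WT, where Dkk3 had 12.1. Among neighbours in the WT order at day 14, the libraries of Fzd7, Fzd1 and Fzd2 overlapped in range once divided by length, so their order is not settled by 2 libraries.

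Ligand levels were lower than those of the leading receptors. At day 14 the highest ligand in 6A was Wnt5a with 8.05 CPM per kb, followed by Wnt9a with 6.29, Wnt2 with 5.63, Wnt11 with 5.38 and Wnt4 with 5.32. In WT the highest was Wnt9a with 6.61 CPM per kb, followed by Wnt5a with 5.22, Wnt11 with 4.91, Wnt7b with 4.27, Wnt4 with 3.99 and Wnt6 with 3.98. Wnt7b and Wnt6 were thus among the leading ligands of WT cultures, whereas in 6A they had 1.34 and 0.727 CPM per kb. Rspo1 led the R-spondins with 9.84 CPM per kb in 6A and 6.41 in WT. At day 0 Wnt5a was the leading ligand in both genotypes, with 4.83 CPM per kb in 6A and 3.44 in WT.

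**Figure D4:**
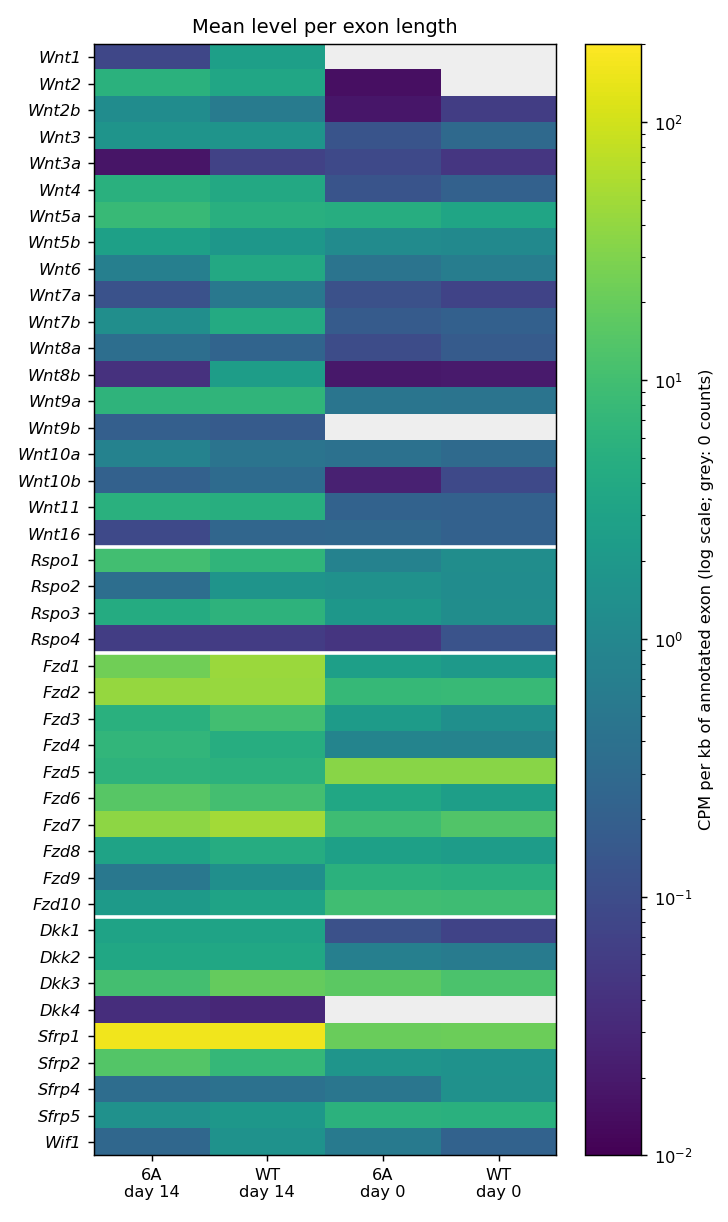
Mean level of all 42 members in CPM per kb of annotated exon (log colour scale, grey for 0 counts) in 6A and WT at day 14 and at day 0, ordered by role. Fzd5 is brighter at day 0, Sfrp1, Fzd1, Fzd2 and Fzd7 are brighter at day 14, and Wnt8b, Wnt1, Wnt6 and Wnt7b are darker in 6A than in WT at day 14.

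Reads that could be given to an allele made up 29.1% to 31.6% of each library, and 79.9% to 80.8% of them were given to 129. At day 14, 22 members had at least 20 such reads in both genotypes. Of these, 14 were read to at least 94% from 129 in both, among them Fzd1, Fzd3, Fzd6, Fzd8 and Wnt5a. The other 8, Dkk3, Fzd2, Fzd4, Fzd10, Sfrp1, Wnt2, Wnt3 and Wnt11, had 129 shares between 20% and 80%. The share of all genes within these limits was not determined, so these counts are not read as a trait of the family. No source used here says how reads were given to an allele. Intervals are exact binomial (Clopper-Pearson) at 95% and cover counting error only.

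Dkk3 was read from both alleles at day 14 and almost only from 129 at day 0. At day 14 the 129 share was 45.2% in 6A (39.3 to 51.2, 155 CAST and 128 129 reads) and 40.8% in WT (36.9 to 44.8, 364 and 251 reads). At day 0 it was 99.4% in 6A (98.4 to 99.8, 4 and 619 reads) and 98.9% in WT (97.2 to 99.7, 4 and 359 reads). Each genotype thus had 4 CAST reads at day 0. The 129 reads of Dkk3 at day 0 stood beside the Y-linked and fibroblast sums given above, and whether feeder RNA supplied them was not tested.

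Fzd8 and Rspo2 showed the opposite order of days. For Fzd8 the 129 share was 98.8% in 6A and 99.2% in WT at day 14, and 78.5% and 78.1% at day 0. For Rspo2 it was 100% of 15 reads in 6A and 98.4% of 62 reads in WT at day 14, and 72.2% and 72% at day 0. Fzd4 had 49.5% in 6A and 52.3% in WT at day 14, and 80.6% and 80% at day 0, where the reads were only 36 and 15. Sfrp1 had 30.5% in 6A and 28.7% in WT at day 14, and 44.1% and 38.1% at day 0. For Dkk3, Fzd8, Fzd4 and Rspo2 the intervals of the genotypes overlapped on each day, so no difference between genotypes was detectable at this depth. The intervals of the days were apart in both genotypes for Dkk3 and Fzd8, only in 6A for Fzd4 and only in WT for Rspo2. For Sfrp1 at day 0 the pooled intervals of the genotypes were apart, with shares of 41.8% and 45.8% in single libraries of 6A and of 40.4% and 36.9% in those of WT.

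**Figure D5:**
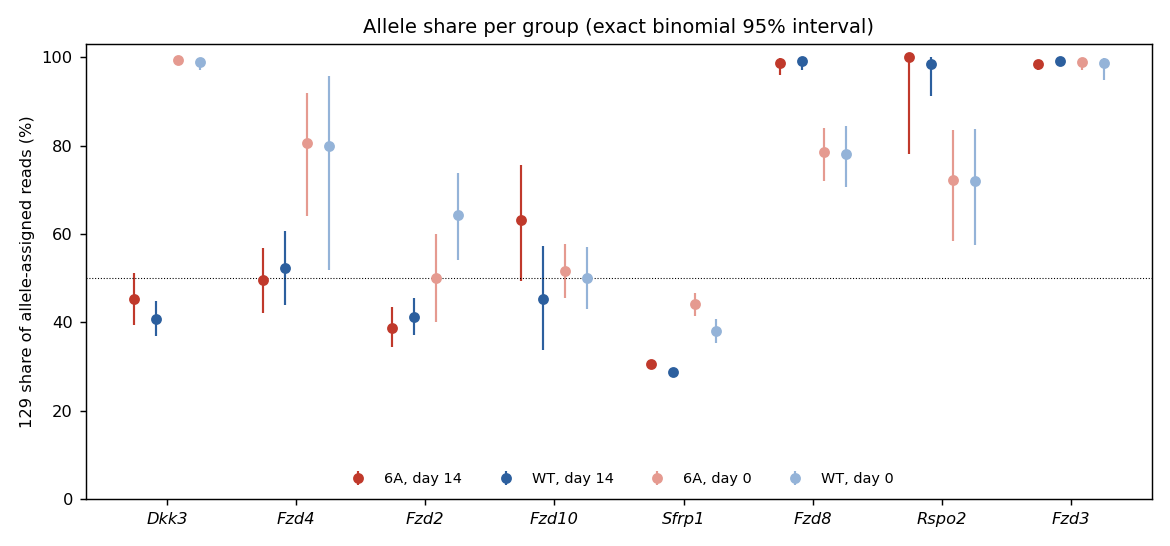
Share of 129 reads among allele-assigned reads (%) for 8 members in 6A and WT at day 14 and at day 0, pooled over the 2 libraries of a group, with exact binomial 95% intervals. Dkk3 stands near 99% at day 0 and between 40% and 46% at day 14 in both genotypes, while Fzd8 and Rspo2 are higher at day 14.

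Other parts of the pathway were described from 3 lists, chosen like the members with earlier results of these data known. Of 41 tested genes for secretion, co-receptors and surface modulators, 0 rose and 11 fell in 6A at day 14 (edgeR; 3 higher at unadjusted p under 0.05 and 0 with DESeq2), against 5.33% and 8.31% of all genes tested, and with a median log2 fold change of -0.27 against 0 over all genes. At day 0, 0 rose and 1 fell (7 higher at unadjusted p under 0.05 and 1 with DESeq2), against 1.06% and 0.518% of all genes, with a median of 0.05 against 0.01. The smallest adjusted p at day 14 was that of Celsr2, a cadherin of planar cell polarity, with 15.5 and 18.8 CPM in 6A and 68 and 55 CPM in WT (-1.84 ± 0.17, edgeR adjusted p = 1.4e-05). Celsr3 had 4.06 and 3.28 CPM in 6A and 12.8 and 13 CPM in WT (-1.81 ± 0.20, adjusted p = 5.1e-05), and was also the gene that fell at day 0, with 8.29 and 8.21 CPM in 6A and 21.1 and 23.9 CPM in WT (-1.45 ± 0.17, adjusted p = 0.00087).

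Surface inhibitors of the pathway were among the genes that fell. Sostdc1, a secreted antagonist, had 0.579 and 0.676 CPM in 6A and 5.68 and 6.41 CPM in WT (log2 fold change -3.25 ± 0.43, edgeR adjusted p = 0.00021), and the membrane protein Apcdd1 had 16 and 15.1 CPM in 6A and 45.1 and 34.1 CPM in WT (-1.34 ± 0.17, adjusted p = 0.00018). Rnf43, the ligase that removes Frizzleds, had 5.89 and 4.25 CPM in 6A and 15.4 and 15.7 CPM in WT (-1.61 ± 0.22, adjusted p = 0.00028). These calls, and those of Celsr2 and Celsr3, held in every fit that left out 1 library, while that of Celsr3 was lost with CAST or 129 reads only (0.06 and 0.43 at day 14, 0.34 and 0.25 at day 0). The others of the 11 were Draxin, Kremen1, Celsr1, Vangl2, Tspan12 and Gpc6, of which all but Draxin lost the call without single libraries of day 14 (adjusted p up to 0.21).

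Of 35 tested genes of the cytoplasmic relay, 0 rose and 3 fell in 6A at day 14 (edgeR; 0 higher at unadjusted p under 0.05 and 0 with DESeq2), the corepressors Tle1 (-0.67, adjusted p = 0.0019) and Tle2 (-0.82, 0.012) and the Dishevelled gene Dvl3 (-0.44, 0.043). This is near the shares of all genes tested, 5.33% and 8.31%, and the median log2 fold change was -0.08 against 0. The calls of Tle2 and Dvl3 were lost without single libraries (adjusted p up to 0.14 and 0.21). At day 0 Tle4 fell (-0.44, edgeR adjusted p = 0.0499), a call lost without 7 of the 8 libraries (up to 0.39), and 0 of 35 rose (0 at unadjusted p under 0.05 and 0 with DESeq2), against 0.518% and 1.06% of all genes, with a median of -0.01 against 0.01. Ctnnb1, beta-catenin, had 700 and 708 CPM in 6A and 777 and 761 CPM in WT at day 14, and was not called.

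Among 27 tested nuclear factors and feedback targets, 4 rose and 6 fell in 6A at day 14, against 5.33% and 8.31% of all genes tested, with a median log2 fold change of -0.20 against 0. Axin2, a feedback inhibitor widely used as a readout of canonical signalling, had 15.3 and 9.75 CPM in 6A and 27.7 and 29.3 CPM in WT (-1.19 ± 0.21, edgeR adjusted p = 0.0019), and Nkd2, another feedback inhibitor, had 6.08 and 5.41 CPM in 6A and 12.8 and 11.9 CPM in WT (-1.09 ± 0.25, adjusted p = 0.01). Among the 4 that rose, Mixl1 had 2.51 and 4.63 CPM in 6A and 0.58 and 0.949 CPM in WT (2.16 ± 0.45, adjusted p = 0.0056). Fgf8 had 8.69 and 6.56 CPM in 6A and 2.78 and 1.98 CPM in WT (1.71 ± 0.30, adjusted p = 0.0018), and Cdx2 had 5.7 and 5.6 CPM in 6A and 0.348 and 1.74 CPM in WT (2.29 ± 0.47, adjusted p = 0.0068). The list thus held genes in both directions, and its targets are also used by other pathways.

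The call of Axin2 held in every fit without 1 library (adjusted p up to 0.034) and was lost with CAST or 129 reads only (0.1 and 0.23). At day 14 Nkd2 was not called without any 1 library of that day (0.05 to 0.084), Mixl1 without 6A replicate 2 (0.087) or WT replicate 1 (0.069), Fgf8 without WT replicate 2 (0.052), and Cdx2 without WT replicate 1 (0.055). The other genes called were Rnf43, which stands in both lists, Ccnd1, Tnfrsf19 and Msx2, which fell, and Cd44, which rose. At day 0, 1 rose and 1 fell, against 1.06% and 0.518% of all genes, with a median of 0.08 against 0.01. Lef1, the nuclear partner of beta-catenin, had 1.97 and 2.2 CPM in 6A and 7.65 and 10.6 CPM in WT (-2.14 ± 0.26, edgeR adjusted p = 0.0012), and the call held in all 14 alternatives. Cd44, an adhesion molecule also found in fibroblasts, had 141 and 148 CPM in 6A and 107 and 91.8 CPM in WT (0.54 ± 0.12, adjusted p = 0.04), a call lost without 7 of the 8 libraries (up to 0.31).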

How the data were processed

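Directional libraries of ribosome-depleted RNA were read in pairs of 150 bases, per the labels' protocols. The submitters' processing notes name cutadapt 1.4.2, STAR 2.7.10a and mm10; no source used here gives the counter, its strand setting, the annotation or the allele assignment. The authors deposited raw counts per gene for all reads, CAST reads and 129 reads. The counts of all reads of 24421 genes were tested with edgeR 4.0.16 under R 4.3.3 (filterByExpr, TMM, robust quasi-likelihood fit of all 8 libraries, 1 coefficient per group, 4 residual degrees of freedom), and p-values were Benjamini-Hochberg adjusted over 15458 genes. The biological coefficient of variation was 0.111 in common. Members, gene lists and tests were chosen with earlier results of these data known.

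Members past the threshold between genotypes or in the interaction are named, with up to 6 of the largest rises and falls on differentiation. The 2 libraries of a group are called biological replicates in the labels, but nothing says whether they came from separate cultures, so p-values measure only the spread between these samples. An exact permutation test of 2 against 2 cannot go below p = 0.333. Groups of 2 fail to overlap at that rate without any difference, so a lack of overlap describes the values and adds no support to a call. Exon lengths and mm10 coordinates came from GENCODE mouse release M21. Alternatives were RLE scaling, no filter beyond 1 count, DESeq2 1.42.0, a replicate block, reads of 1 allele, only the 2 groups compared and leaving out each library. Counting intervals are exact binomial at 95% and cover counting error only.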

Additional observations from a re-analysis of the deposited data

Results flagged for a closer look

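The 6A minus WT log2 difference at day 14 minus that at day 0 passed edgeR's interaction test for 6 members. It was -1.61 for Fzd3 (adjusted p = 0.0011), -3.80 for Wif1 (0.0031), -2.49 for Rspo2 (0.0027), -1.39 for Dkk3 (0.0025), -1.21 for Fzd1 (0.023) and -1.03 for Rspo3 (0.049). In each of the 6 the 6A level at day 14 was below the WT level in both libraries, while at day 0 the mean was higher in 6A. Only Fzd3 was called at day 0, and the day 0 libraries of Fzd1 and of Rspo2 overlapped between genotypes. The value of Rspo3 is the least stable of the 6, since its call was lost in 12 of 13 alternatives.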

How the results depend on the processing

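At day 0, 2 members were called, against 1 with DESeq2, 0 with CAST reads only, 0 with 129 reads only, 0 with only the 2 groups fitted, and 0 to 2 without single libraries. At day 14 the 15 became 1 with CAST reads only, 9 with 129 reads only, and 9 to 17 without single libraries. On differentiation the 32 in 6A became 12 and the 34 in WT became 12 with CAST reads only, and they were 28 to 33 and 32 to 34 without single libraries. The 6 interactions became 0 with CAST reads only, 2 with 129 reads only, and 4 to 6 without single libraries. The CAST fit tested 12 members and the 129 fit 32, so fewer could be called. With CAST reads only the median of all genes on differentiation moved by 0.297 in 6A and 0.269 in WT. Between genotypes at day 14, 2 directions turned, Fzd8 to 0.01 with CAST reads only and Fzd9 to 0.40 with 129 reads only. Fzd8 had 2 CAST reads in each genotype, and Fzd9 had 4 reads given to 129 in 6A and 3 in WT. So few reads give no direction. On differentiation 3 turned, Dkk3 in 6A to 5.77 and Fzd8 in WT to -3.59 with CAST reads only, and Dkk3 in WT to -0.32 with 129 reads only.

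The labels do not say what the replicate numbers mark, and deviations of same-numbered libraries correlated by 0.01 to 0.32 over 6 pairs of groups, so they were not treated as pairs. With a replicate block 2 members were called at day 0, 16 at day 14, 31 on differentiation in 6A, 35 in WT, and 7 in the interaction. The depth limits Wnt1, Wnt2, Wnt2b, Wnt8b, Wnt9b and Wnt10b, which had 3 or fewer counts in at least 1 group. The interaction could not be fitted with only the 2 groups.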
